A study of Mus musculus with 2 samples.

Results

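Caudal homeobox genes were examined in single cells of mouse gastruloids at day 2.5. The 7 genes were Cdx1, Cdx2, Cdx4, Hoxb1, Hoxb2, Nkx1-2 and Evx1, chosen by symbol from 32285 genes in the deposited tables. All 7 were detected in both libraries, and 3 of them, Nkx1-2, Evx1 and Cdx2, reached a mean level of 1 CPM, a count scaled to a common library total. Counts are of unique molecular identifiers (UMIs), which each tag 1 molecule. Gastruloids are aggregates of embryonic stem cells that begin to form body axes in culture. About 300 cells of the mouse embryonic stem cell line R1, wild type (WT) or Sp5/8 dko, were aggregated in serum-free N2B27 medium, and both groups received 3 µM CHIR for 12 h from day 2. CHIR blocks GSK3 and so raises Wnt signalling. Sp5 and Sp8 encode zinc-finger transcription factors that act downstream of Wnt signalling. The alleles of the double knockout and its number of clones are not given in the sources used here. Aggregates were pooled for each group, and each group has 1 library, so no difference has a replicate check and every interval covers counting error only.

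Cdx genes are the vertebrate counterparts of fly caudal. Their products act downstream of Wnt and Fgf signals in the posterior epiblast, where they activate trunk Hox genes and sustain axial elongation. Hoxb1 and Hoxb2 stand at the 3′ end of the HoxB cluster and are among the first Hox genes to be switched on in the posterior streak. Evx1 is a homeobox gene of the primitive streak, and Nkx1-2 marks the caudal lateral epiblast, which holds neuromesodermal progenitors. T (Brachyury) is the T-box factor of the streak and of those progenitors.

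The library labelled wild type held 8707 cells with a median of 10571 UMIs and 3275 genes. The library labelled double knockout held 10587 cells with medians of 8637 UMIs and 2884 genes. The targeted genes went against the labels: Sp5 stood at 109 CPM in the wild-type-labelled library and 479 CPM in the knockout-labelled library, and Sp8 at 20.8 and 40.1 CPM. Whether the deleted parts lie inside the counted 3′ ends was not tested, and every direction below rests on labels that the targeted genes do not bear out. In all, 27 kept barcodes occurred in both libraries, against 13.6 for independent draws.

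Promoter sequences of 5 of the 7 genes matched RefSeq tables on GRCm38.p6. The windows of the 3 genes with usable counts are shown because they let the Wnt and Sp motif content be read beside the levels. Each runs 5′ to 3′ on the strand of its gene, from 250 bases before to 50 bases after the annotated start. They lie at chr7:132599588-132599887 (minus strand, Nkx1-2), chr5:147307200-147307499 (minus strand, Cdx2) and chr6:52313248-52313547 (plus strand, Evx1). Capitals mark GC boxes, the motif that Sp factors bind, searched as GGGCGG on both strands and read here as its complement.
Nkx1-2: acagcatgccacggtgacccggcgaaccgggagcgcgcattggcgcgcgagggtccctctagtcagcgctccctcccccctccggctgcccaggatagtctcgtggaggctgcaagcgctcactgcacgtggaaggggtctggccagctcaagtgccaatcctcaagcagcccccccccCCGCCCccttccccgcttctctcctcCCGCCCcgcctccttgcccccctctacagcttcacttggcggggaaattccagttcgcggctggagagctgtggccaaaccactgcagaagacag
Cdx2: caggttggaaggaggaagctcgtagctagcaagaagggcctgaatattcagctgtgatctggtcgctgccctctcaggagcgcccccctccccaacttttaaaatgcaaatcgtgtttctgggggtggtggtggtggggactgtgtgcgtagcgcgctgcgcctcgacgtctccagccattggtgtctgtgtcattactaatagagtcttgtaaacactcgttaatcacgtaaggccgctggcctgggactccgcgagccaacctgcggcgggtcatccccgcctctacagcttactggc
Evx1: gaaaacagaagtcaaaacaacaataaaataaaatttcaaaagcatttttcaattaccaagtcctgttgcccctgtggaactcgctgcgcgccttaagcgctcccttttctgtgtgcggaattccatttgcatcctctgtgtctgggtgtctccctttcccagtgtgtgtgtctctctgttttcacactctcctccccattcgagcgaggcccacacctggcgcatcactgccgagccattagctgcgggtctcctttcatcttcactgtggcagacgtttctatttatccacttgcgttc
The Nkx1-2 window held 2 GC boxes, and the windows of Cdx2, Cdx4, Evx1 and Hoxb1 held none. Of all 32817 promoter windows, 35.6% held one. The TCF/LEF core CTTTGA, the T-box half-site TCACACC and the caudal core TTTATG, none of which overlaps the GC box, occurred in 16%, 3.98% and 11.9% of all windows and in none of these 5. The GC content was 67.3% for Nkx1-2, 59.3% for Hoxb1, 57.3% for Cdx2, 50.3% for Cdx4 and 48.7% for Evx1, against a median of 52.7%. A match or its absence describes these letters only.

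Nkx1-2 was the most abundant of the 7 genes. It had 1964 UMIs in the wild-type-labelled library, or 20.2 CPM (95% interval 19.3 to 21.1), and 1760 UMIs in the knockout-labelled library, or 18 CPM (17.2 to 18.9). The log2 ratio of the knockout-labelled over the wild-type-labelled library was -0.17 (-0.26 to -0.07). The gene (ENSMUSG00000048528) lies on the minus strand of chromosome 7 from 132594878 to 132599637, inside the annotated extent of Fgfr2 on the same strand and antisense to Gm16764. Fgfr2 had 7.77 and 6.05 CPM and Gm16764 at most 3 UMIs. How counting treated strand and overlap is not given in the sources used here, so the values of Nkx1-2 are less certain for that reason.

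Evx1 came next. It had 1096 UMIs, or 11.3 CPM (10.6 to 12.0), in the wild-type-labelled library and 946 UMIs, or 9.69 CPM (9.08 to 10.3), in the knockout-labelled library, with a log2 ratio of -0.22 (-0.35 to -0.09). It lies on the plus strand of chromosome 6 (ENSMUSG00000005503, 52313498 to 52318378) and overlaps the antisense gene Evx1os. Evx1os had 240 and 302 UMIs and a log2 ratio of 0.32 (0.07 to 0.57), the opposite direction to Evx1, and reads of the pair may not be fully separated.

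Cdx2 showed the widest gap between the libraries among the measurable genes. It had 920 UMIs, or 9.47 CPM (8.87 to 10.1), in the wild-type-labelled library and 606 UMIs, or 6.21 CPM (5.72 to 6.72), in the knockout-labelled library, which is 1.53-fold lower, with a log2 ratio of -0.61 (-0.76 to -0.46). Cdx2 (ENSMUSG00000029646) lies on the minus strand of chromosome 5 from 147300805 to 147307270 and overlaps no annotated gene. Of the 3 genes at a mean of 1 CPM or more, 1 differed by a log2 ratio of at least 0.5. Over all 12406 genes at that level 2.43% did so in either direction, 1.51% lower and 0.927% higher in the knockout-labelled library, and the median log2 ratio was -0.03. At a mean of 10 CPM or more, which of the 7 genes only Nkx1-2 and Evx1 reached, 0.421% of genes were higher and 0.434% lower by that much, and with no minimum 12.1% were higher and 13.7% lower. Over all cells low on neither chromosome 6 nor 11 the Cdx2 ratio was -0.07, and its values in single clusters are given below.

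The other 4 genes were close to the limit of detection. Cdx1, a caudal gene of the primitive streak, had 49 and 57 UMIs, or 0.50 and 0.58 CPM. Cdx4 (ENSMUSG00000031326, chromosome X, 103321398 to 103330592, plus strand) had 13 and 25 UMIs. Hoxb1 (ENSMUSG00000018973, chromosome 11, 96365752 to 96368256, plus strand) had 23 and 21 UMIs, and Hoxb2 (ENSMUSG00000075588, chromosome 11, 96350525 to 96354012, plus strand, antisense to Hoxb3os) had 16 and 12. Their log2 ratios were 0.21 (-0.37 to 0.79), 0.91 (-0.09 to 2.03), -0.14 (-1.06 to 0.78) and -0.41 (-1.63 to 0.75). Each of these intervals holds 0, so no difference was detectable at this depth.

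The order of levels was the same at the top in both libraries, from Nkx1-2 to Evx1 to Cdx2 to Cdx1, with intervals apart at each step. Counts of 3′ ends need no scaling by gene length. Below Cdx1, the intervals of Cdx4, Hoxb1 and Hoxb2 overlapped in each library, so their order was not resolved.

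**Figure D1:**
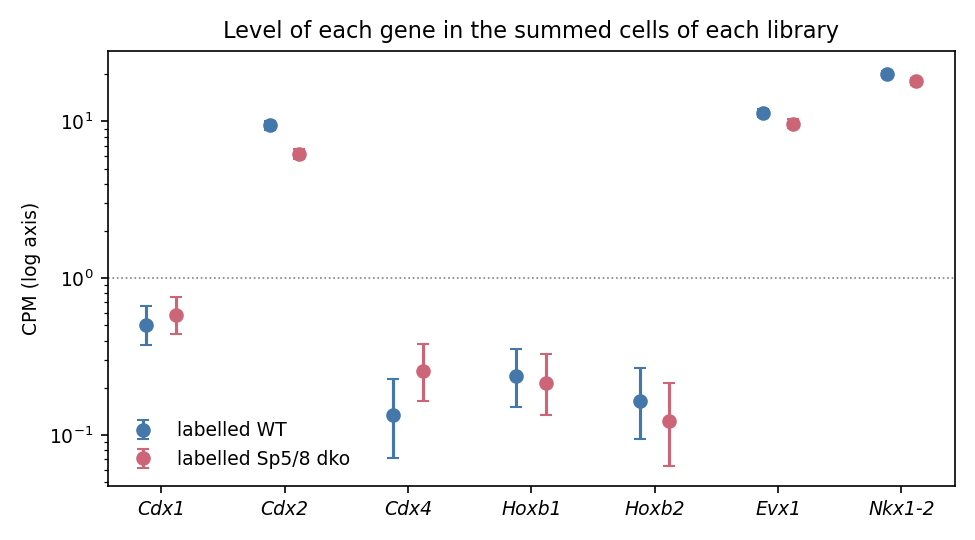
Level of each gene (CPM, log axis) in the summed cells of the library labelled WT (blue) and the library labelled Sp5/8 dko (red). Bars are exact Poisson 95% intervals and the dotted line is 1 CPM. Nkx1-2, Evx1 and Cdx2 sit above the line and the other 4 genes below it, and only Cdx2 shows a gap of over 1.5-fold among the 3.

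Detection per cell was highest for Nkx1-2. To compare cells of unlike depth, each cell was thinned to 4000 UMIs, which left out 258 and 358 shallower cells. An Nkx1-2 UMI was then found in 7.52% of cells in the wild-type-labelled library and 6.77% in the knockout-labelled library, an Evx1 UMI in 3.96% and 3.79%, and a Cdx2 UMI in 3.98% (3.57 to 4.42) and 2.28% (2.00 to 2.59). Evx1 and Cdx2 were thus found in like shares of the wild-type-labelled library, and Cdx2 in fewer cells of the other. Without thinning the shares were 18% and 14.1% for Nkx1-2, 10.2% and 7.77% for Evx1, and 8.25% and 4.93% for Cdx2. For Cdx1 the thinned shares were 0.18% and 0.26%, and for Cdx4, Hoxb1 and Hoxb2 they were at most 0.10%.

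Counts were gathered in fewer cells than random scatter over equal cells would give. In the thinned wild-type-labelled library 29 cells held at least 2 Cdx2 UMIs, against 7.74 for a Poisson spread, and in the knockout-labelled library 20 did, against 3.20. For Evx1 the numbers were 21 against 7.33 and 18 against 7.89, and for Nkx1-2 they were 53 against 26.7 and 53 against 26.2. Observed over Poisson was largest for Cdx2 in both libraries, at 3.75 and 6.25. The genes differ in mean count, and the differences between genes were not tested. Barcodes with 10 to 100 UMIs, which mostly hold free RNA, had 6.57 and 5.90 CPM of Cdx2, 19.2 and 15.7 CPM of Nkx1-2, and 8.84 and 7.08 CPM of Evx1. Those barcodes averaged 0.369% and 0.330% of the UMIs of the median cell.

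Cell clusters formed without the 7 genes, other Hox, Cdx and Evx genes, Sp5 or Sp8 showed where each gene was high. Levels are ordered here among the 6 clusters that hold 100 or more cells in both libraries. Nkx1-2 was highest in cluster 2, which is led by the patterning genes Irx3, Gbx2 and Meis2, at 28.8 CPM in the wild-type-labelled library and 31.2 CPM in the knockout-labelled library. Fgfr2 is also among the leading genes of that cluster, and the part of shared reads was not tested. In the cluster led by Rhox5 and Dppa5a (cluster 1) Nkx1-2 had 12.5 and 12.6 CPM, and in the primitive-streak-like cluster led by Foxa2, Gsc and Mixl1 (cluster 4) it had 16.1 and 16.3 CPM. Within each of these 3 clusters the log2 ratio between the libraries was close to 0: 0.01 (-0.21 to 0.24) in cluster 1, 0.12 (-0.03 to 0.26) in cluster 2 and 0.01 (-0.19 to 0.22) in cluster 4. In cluster 5, described below, Nkx1-2 had 22.3 and 13.7 CPM, with a log2 ratio of -0.69 (-1.19 to -0.24).

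Evx1 was lowest of these clusters in cluster 2, where Nkx1-2 was highest, at 5.99 and 2.60 CPM, and high in cluster 4, at 16.8 and 13.1 CPM. In cluster 1 it had 11.8 and 8.28 CPM. The libraries differed within clusters: the log2 ratio was -1.19 (-1.66 to -0.77) in cluster 2, -0.51 (-0.78 to -0.25) in cluster 1 and -0.36 (-0.56 to -0.15) in cluster 4, each larger in size than the -0.22 over all cells. In cluster 5 the log2 ratio was 0.19 (-0.22 to 0.57).

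Among these clusters Cdx2 was highest in cluster 5, whose leading genes are Nfib, Cdx2, Pkdcc and Itgb5 and also include T. It had 23.3 CPM (20.6 to 26.2) there in the wild-type-labelled library and 13.1 CPM (9.45 to 17.6) in the knockout-labelled library. In clusters 1, 2 and 4 it lay between 5.11 and 8.38 CPM in either library. Its log2 ratio was -0.82 (-1.33 to -0.37) in cluster 5, -0.57 (-0.91 to -0.25) in cluster 2, -0.46 (-0.76 to -0.16) in cluster 4 and -0.18 (-0.49 to 0.13) in cluster 1. Evx1 was also high in cluster 5, at 19.0 and 21.6 CPM, as was Cdx1, at 1.92 and 3.95 CPM. Most cells of cluster 5 had low expression from chromosome 11 (94.1% and 87.5%), and many also from chromosome 6 (77.8% and 52.9%), so the cluster is given by number and not as a cell type.

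**Figure D2:**
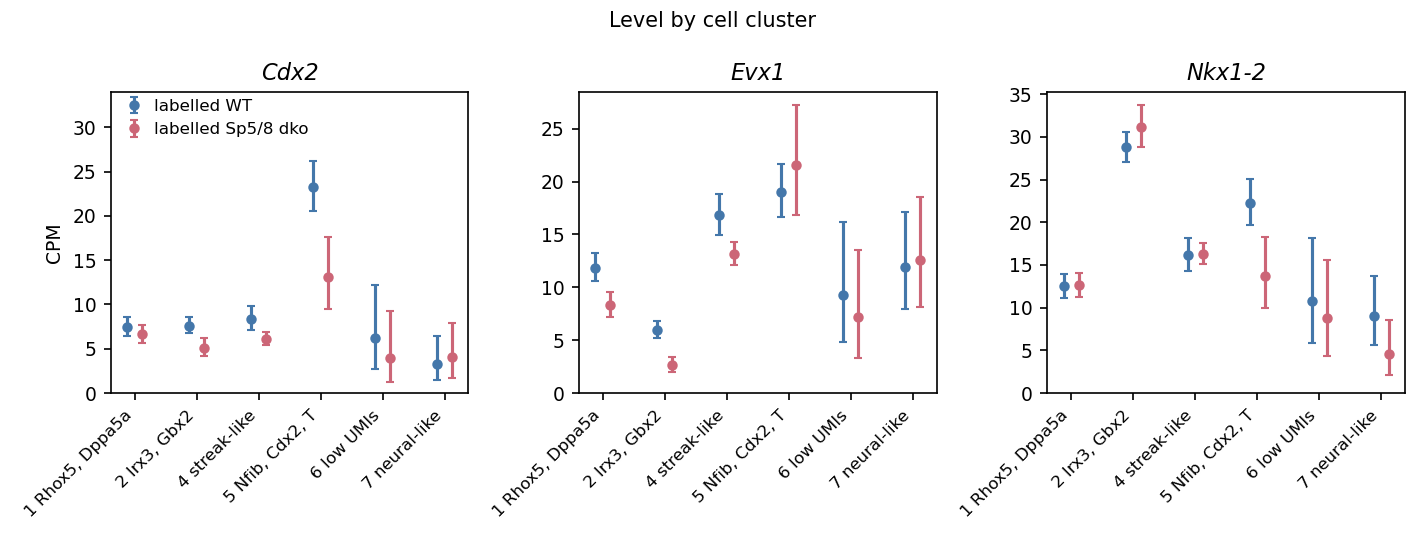
Level (CPM) of Cdx2, Evx1 and Nkx1-2 in the 6 clusters that hold 100 or more cells per library, with exact Poisson 95% intervals, library labelled WT in blue and Sp5/8 dko in red. Cdx2 peaks in cluster 5, Evx1 in clusters 4 and 5, and Nkx1-2 in cluster 2.

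Neural-like cells (cluster 7, with Sox1, Ebf3 and Insm1) were used as a reference for Cdx2 and Nkx1-2. A Cdx2 UMI was found in 0.40% (0.010 to 2.20) of thinned neural-like cells in the wild-type-labelled library, below the 3.19% to 9.16% of clusters 1, 2, 4 and 5. By CPM the gap was not resolved for clusters 1, 2 and 4 in cells low on neither chromosome 6 nor 11. Neural-like cells of that library then had 3.81 CPM (1.65 to 7.51). This interval held the 6.94 and 4.31 CPM of clusters 1 and 2 and overlapped that of cluster 4 (8.04 CPM). Cluster 5 kept only 39 such cells. In the knockout-labelled library a Cdx2 UMI was found in 1.21% (0.25 to 3.51) of thinned neural-like cells. That interval holds the shares of clusters 1, 2 and 4 (1.43% to 2.56%) but not the 4.73% of cluster 5. Cdx2 was thus not resolved from this reference there outside cluster 5. For Nkx1-2 the neural-like shares were 1.99% (0.65 to 4.59) and 1.62% (0.44 to 4.09), against 10.4% and 11.3% in cluster 2. Median depths before thinning were 9092 and 7599.5 UMIs in neural-like cells and 10558 and 8466.5 in cluster 2. For Evx1, neural-like cells had 3.19% and 4.86%, close to the share over all cells, so they are no low reference for it, and its lowest shares among the 6 clusters were the 2.08% and 0.998% of cluster 2. In the naive-pluripotent-like cells (66 and 65 cells) no library held more than 4 UMIs of any of the 3 genes. For Cdx2 this was 4.78 CPM (0.99 to 14.0) and 7.16 CPM (1.95 to 18.3), so these cells are too few to serve as a low reference.

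Overlap with T separated Evx1 and Cdx2 from Nkx1-2. Among thinned cells of the wild-type-labelled library, an Evx1 UMI was found in 7.44% (5.94 to 9.18) of cells with a T UMI and in 3.46% (3.05 to 3.90) of cells without one. In the knockout-labelled library the shares were 5.91% (4.80 to 7.19) and 3.41% (3.04 to 3.81). The number of cells with both genes was 1.88 and 1.56 times the number expected if they were independent. The intervals with and without T did not overlap in either library.

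For Cdx2 the shares with and without T were 6.88% (5.44 to 8.57) and 3.55% (3.14 to 4.0) in the wild-type-labelled library, with 74 cells holding both. They were 2.86% (2.09 to 3.81) and 2.17% (1.88 to 2.50) in the knockout-labelled library, with 45 cells holding both. The observed number was 1.73 and 1.26 times the expected one. The intervals lay apart in the wild-type-labelled library and overlapped in the knockout-labelled library, where no enrichment was resolved at this depth in thinned cells. In unthinned cells the shares were 6.52% and 4.27% there, with intervals apart, but these cells differ in depth.

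Nkx1-2 showed no such excess in these thinned cells. Its shares with and without T were 7.81% and 7.47% in the wild-type-labelled library and 6.42% and 6.83% in the knockout-labelled library, and observed over expected was 1.04 and 0.95. In unthinned cells the shares were 20.4% and 17.1% in the wild-type-labelled library, with intervals apart. They were 14.7% and 13.9% in the knockout-labelled library, with intervals that overlapped. Observed over expected was then 1.14 and 1.04, again in cells that differ in depth. Of the 4 rarer genes, each had at most 8 cells shared with T in a library, too few to place.

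The count of T, read in cells with 0, 1 and 2 to 3 T UMIs, gave the same ordering of shares, though not every step was resolved. In the wild-type-labelled library the share of Cdx2-positive cells was 3.55%, 5.49% and 13.1% in cells with 0, 1 and 2 to 3 T UMIs, and that of Evx1-positive cells was 3.46%, 6.39% and 13.1%. In the knockout-labelled library the shares were 2.17% (1.88 to 2.50), 2.60% (1.80 to 3.63) and 3.47% (1.68 to 6.29) for Cdx2. These intervals overlap, so no rise of Cdx2 with T was resolved there. For Evx1 the shares were 3.41% (3.04 to 3.81), 5.20% (4.04 to 6.56) and 7.64% (4.85 to 11.3), of which the last 2 overlap. Nkx1-2 stayed between 6.30% and 8.00% in these 6 groups of cells. Cells with 4 or more T UMIs numbered 8 and 15, too few to place. Cdx2 was found in 2 and 2 of them, Evx1 in 0 and 5, and Nkx1-2 in 1 and 1. T itself was higher in the knockout-labelled library, at 50.7 against 38.8 CPM, and 15.4% against 12.7% of thinned cells held a T UMI.

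**Figure D3:**
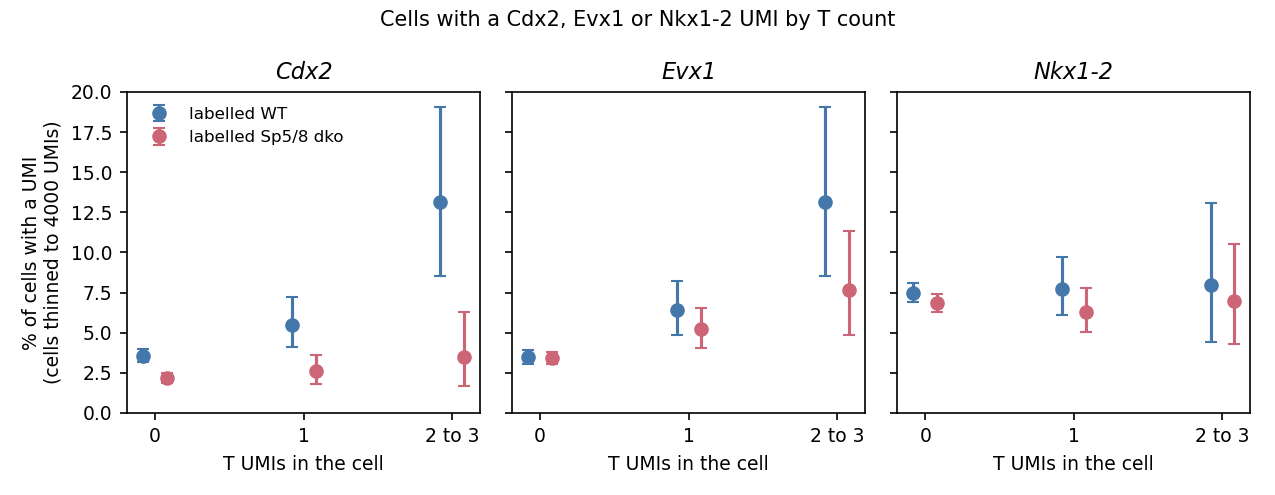
Share of cells (%) with a Cdx2, Evx1 or Nkx1-2 UMI by the number of T UMIs in the same cell, in cells thinned to 4000 UMIs, library labelled WT in blue and Sp5/8 dko in red. Bars are exact binomial 95% intervals. Cdx2 and Evx1 reach 13.1% in cells with 2 to 3 T UMIs of the library labelled WT, while Nkx1-2 stays level. Cells with 4 or more T UMIs (8 and 15) are not shown.

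The 3 genes met in single cells seldom. Cdx2 and Evx1 shared 26 cells in the wild-type-labelled library, against 13.3 expected for independent genes, and 10 against 8.84 in the knockout-labelled library. Cdx2 and Nkx1-2 shared 30 cells against 25.3, and 18 against 15.8. Nkx1-2 and Evx1 shared 25 against 25.2, and 22 against 26.2. Only the first pair, in the wild-type-labelled library, had shares with intervals apart: Cdx2 was found in 7.76% (5.13 to 11.2) of Evx1-positive cells and 3.82% (3.41 to 4.26) of the others. UMIs of all 3 genes met in 3 cells of the wild-type-labelled library, against 1.0013 expected. In the knockout-labelled library they met in 0 of 10229 cells, which allows a share of up to 0.0293%, against 0.598 cells expected.

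Genes enriched in positive cells of both libraries were ranked by the smaller enrichment over 7324 genes or nearly as many. Mixl1 came first for both Evx1 and Cdx2, whose other leading genes differed, while Gbx2 came first for Nkx1-2. T was enriched in Cdx2-positive cells too, at log2 1.15 (0.85 to 1.42) in the wild-type-labelled and 0.51 (0.11 to 0.86) in the knockout-labelled library. Evx1-positive cells were enriched for Mixl1, T, Gsc, Tdgf1, Fgf8 and Stxbp5. Mixl1, a streak homeobox gene, had 35.8 CPM in Evx1-positive and 10.8 CPM in Evx1-negative cells of the wild-type-labelled library (log2 1.75, 1.27 to 2.17), and 32.2 and 15.1 CPM in the knockout-labelled library (log2 1.10, 0.65 to 1.51). Fgf8, a streak growth factor, had 153 and 85.7 CPM, and 240.3 and 145 CPM. The interval of Stxbp5 in the wild-type-labelled library held 0. The strongest depletion included Sox2, Sox3, Irx3 and Irx5, genes of neural fate and patterning, with log2 ratios between -1.49 and -0.74, where the intervals of Irx3 and Irx5 in the knockout-labelled library held 0.

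Nkx1-2-positive cells were enriched for genes that include Gbx2, Cntfr, Efnb1, Gpc4 and Rtl8a. Gbx2, a homeobox gene of the hindbrain side of the neural plate, had 42.9 and 23.6 CPM in positive and negative cells of the wild-type-labelled library (log2 0.87, 0.56 to 1.15), and 32.9 and 17.6 CPM in the knockout-labelled library (log2 0.91, 0.57 to 1.22). The interval of Gpc4 in the wild-type-labelled library held 0. The pluripotency genes Dppa5a and Zfp42 were among the most depleted, at -0.91 and -0.64 in the first library and -0.66 and -1.15 in the second. Otx2, the anterior counterpart of Gbx2, divided the libraries in part: an Nkx1-2 UMI was found in 3.82% (2.64 to 5.32) of Otx2-positive and 7.94% (7.34 to 8.57) of Otx2-negative cells of the wild-type-labelled library, against 5.87% (4.85 to 7.04) and 6.97% (6.43 to 7.53) in the other, and the difference between the libraries was not tested.

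Cdx2-positive cells were enriched for Mixl1, Pdgfa, Galnt12, Tsix, Lrp2 and Egln1. Mixl1 had 20.1 and 11.4 CPM (log2 0.84, 0.20 to 1.38) in the wild-type-labelled library and 30.04 and 15.4 CPM (log2 0.99, 0.36 to 1.51) in the knockout-labelled library. Pdgfa, a growth factor gene on chromosome 5 like Cdx2, had 50.6 and 29.7 CPM, and 48.3 and 24.2 CPM. For Galnt12, Tsix and Lrp2 at least 1 of the intervals held 0. Irx3 was depleted, with log2 ratios of -0.75 and -1.64. Cdx2 also marks trophoblast, so its markers were read: their sum was 143 CPM in Cdx2-positive and 135 CPM in Cdx2-negative cells of the wild-type-labelled library, and 268 and 231 CPM in the other, with Elf5, Gata3 and Plac1 at 0 UMIs in the positive cells of both. These 12 markers include Eomes, which is also a streak marker. Over all cells Eomes alone had 91.2 and 186 CPM, of 135 and 233 CPM for the whole list, so the sums mostly do not measure trophoblast. Extraembryonic-endoderm markers summed to 12.6 and 15.6 CPM in Cdx2-positive and Cdx2-negative cells of the wild-type-labelled library, and to 55.8 and 12.7 CPM in the knockout-labelled library, where Afp alone of the 10 markers was at 0 in positive cells. Primordial-germ-cell markers summed to 8.93 and 13.0 CPM, and to 26.8 and 15.0 CPM. The extraembryonic-endoderm-like cluster, with 16 cells in each library, held 1 of the 920 and 8 of the 606 Cdx2 UMIs. The part of trophoblast or germ cells in the values of Cdx2 was not tested.

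**Figure D4:**
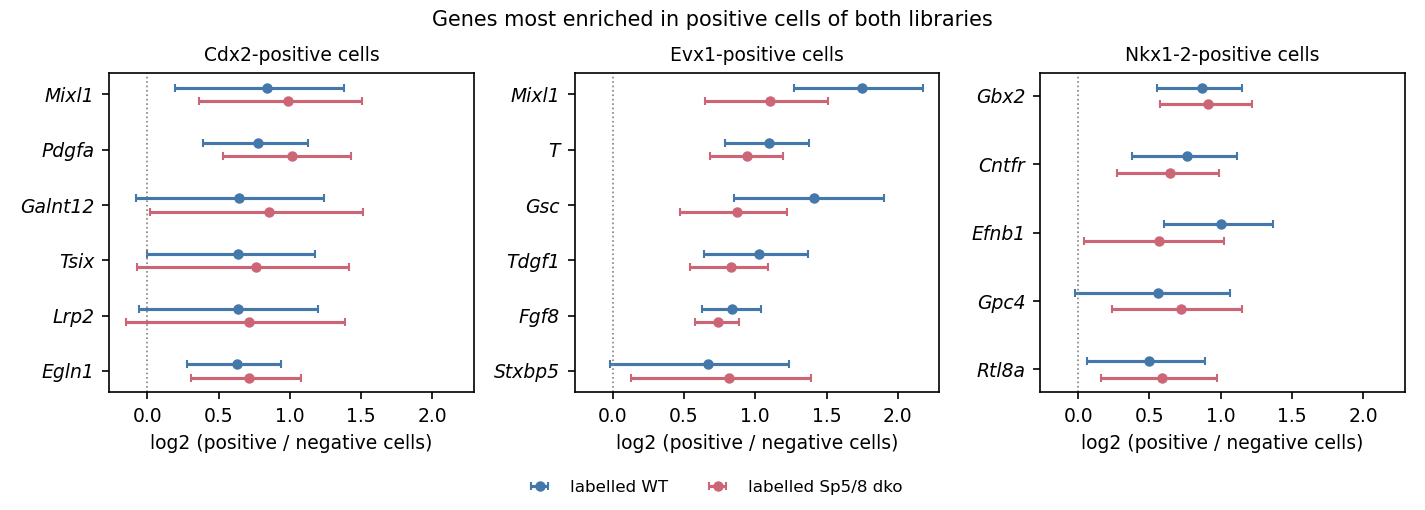
The 6 genes most enriched in Cdx2- and Evx1-positive cells and 5 of the 6 for Nkx1-2-positive cells, as the log2 ratio of summed counts in positive over negative thinned cells, library labelled WT in blue and Sp5/8 dko in red, with 95% intervals from counts. Mixl1 leads for both Cdx2 and Evx1, and Gbx2 for Nkx1-2.

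A subset of cells with low expression from whole chromosomes moved with these genes. Cells whose share of UMIs on chromosome 11 was at most 0.8 times the median made up 17.7% of the wild-type-labelled library and 5.82% of the knockout-labelled library. For chromosome 6 the shares were 21.1% and 18.2%. Neither Cdx2 nor Cdx1 nor Nkx1-2 lies on these chromosomes, Evx1 lies on chromosome 6, and the 7 genes were left out of the shares. Some cells lay near the limit: 399 and 107 cells between 0.75 and 0.85 for chromosome 11, and 983 and 649 for chromosome 6.

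Cdx2 had 25.4 CPM in cells low on chromosome 11 and 6.60 CPM in the others of the wild-type-labelled library (log2 1.94, 1.75 to 2.14). In the knockout-labelled library it had 12.6 and 5.87 CPM (log2 1.12, 0.70 to 1.49). Cells low on either chromosome thus held 51.4% of all Cdx2 UMIs of the wild-type-labelled library, where they held 22.7% of all UMIs, and 27.1% of those of the knockout-labelled library, where they held 20.3%. In cells low on neither chromosome, Cdx2 stood at 5.95 CPM (5.41 to 6.53) and 5.68 CPM (5.16 to 6.23), with a log2 ratio of -0.07 (-0.26 to 0.13). The gap between the libraries in Cdx2 was therefore not detectable over the 6543 and 8307 cells without a low chromosome. The values by cluster follow, with intervals that overlap between clusters 1, 2 and 4 without the low cells, and differences between clusters were not tested. Without the low cells the ratio in cluster 2 was -0.02 (-0.47 to 0.41), against -0.57 with them. In cluster 4 it was -0.54 (-0.87 to -0.20), at 8.04 and 5.55 CPM, so there the gap was as large without the low cells. In cluster 1 it was -0.03 (-0.36 to 0.29). Evx1 kept ratios of -0.48, -1.33 and -0.33 in clusters 1, 2 and 4 without the low cells, each with an interval below 0.

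Within the low cells Cdx2 still differed between the libraries. In cells low on chromosome 11 alone it had 26.4 CPM (21.1 to 32.7) in the wild-type-labelled library and 9.55 CPM (6.30 to 13.9) in the knockout-labelled library. In cells low on chromosome 6 alone the values were 13.4 (10.8 to 16.4) and 6.87 CPM (5.61 to 8.33), and in cells low on both they were 25.1 (22.3 to 28.1) and 17.0 CPM (11.8 to 23.7). Whether these cells lack a chromosome copy was not tested.

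Cdx1 followed Cdx2 at a lower level, with 1.62 and 0.30 CPM in cells low on chromosome 11 and the others of the wild-type-labelled library (24 and 25 UMIs), and 3.94 and 0.41 CPM in the other library (19 and 38 UMIs). Its log2 ratios of 2.41 (1.54 to 3.28) and 3.28 (2.39 to 4.10) were above those of the other 6 genes in each library, though its intervals overlapped those of Cdx4, Hoxb1 and Hoxb2 in both libraries and that of Cdx2 in the wild-type-labelled library, so its place was not resolved. Evx1 was also higher in cells low on chromosome 11, at 17.0 against 10.3 CPM and 20.5 against 9.13 CPM, as was T, at 70.8 against 33.0 CPM and 106 against 47.8 CPM. Hoxb1, itself on chromosome 11, had 8 of its 23 and 4 of its 21 UMIs in those cells. From these few UMIs it stood at 0.54 against 0.18 CPM (log2 1.60, 0.12 to 2.89) and 0.83 against 0.18 CPM (log2 2.31, 0.15 to 3.79). Nkx1-2 differed less than Evx1, at 24.5 against 19.4 CPM (log2 0.34, 0.17 to 0.50) and 17.4 against 18.1 CPM (log2 -0.05, -0.39 to 0.26). In cells low on chromosome 6 against all others it was higher in both libraries, with log2 ratios of 0.42 (0.27 to 0.57) and 0.35 (0.18 to 0.52).

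Evx1 was lower in cells low on its own chromosome alone. In cells low on chromosome 6 only it had 6.28 CPM (4.58 to 8.40) and 4.80 CPM (3.76 to 6.05), against 10.6 CPM (9.91 to 11.4) and 9.96 CPM (9.27 to 10.7) in cells low on neither chromosome. In cells low on both chromosomes it was higher, at 17.0 CPM (14.8 to 19.6) and 21.0 CPM (15.1 to 28.4). Between the libraries, the log2 ratio in cells low on neither was -0.09 (-0.24 to 0.05) for Evx1 and -0.13 (-0.24 to -0.02) for Nkx1-2.

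**Figure D5:**
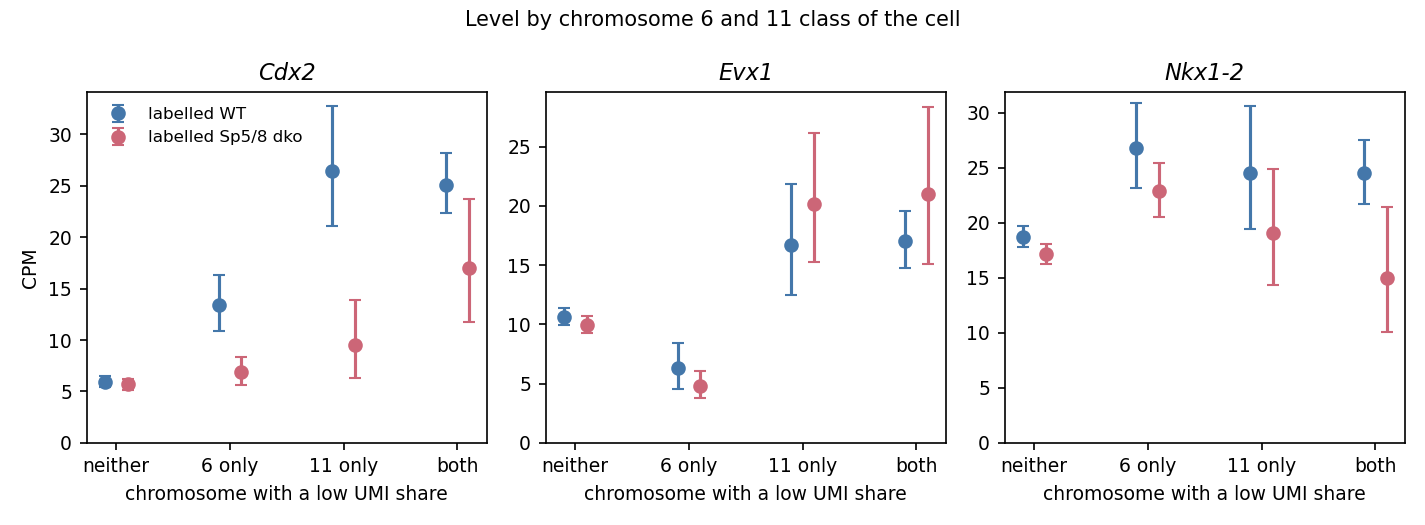
Level (CPM) of Cdx2, Evx1 and Nkx1-2 in cells with a low share of UMIs from neither chromosome, from chromosome 6 only, from chromosome 11 only or from both, library labelled WT in blue and Sp5/8 dko in red, with exact Poisson 95% intervals. Cdx2 is nearly equal in the libraries where neither chromosome is low (5.95 and 5.68 CPM). Its intervals do not overlap where 1 chromosome is low and overlap where both are.

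The overlap with T was also read without the low cells. In cells low on neither chromosome, Cdx2 was found in 4.85% of T-positive and 2.04% of T-negative cells of the wild-type-labelled library (observed over expected 2.08), and in 2.58% and 1.91% in the other (1.29). For Evx1 the ratios were 2.09 and 1.44. Within cells low on chromosome 11 the Cdx2 share hardly depended on T: it was 11% (7.83 to 14.9) with T and 9.48% (7.87 to 11.3) without T in the wild-type-labelled library, and 4.85% and 5.52% in the other.

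The Hox genes as a family were barely expressed. Of 39 Hox genes none reached a mean of 1 CPM, 34 and 33 had a UMI, and all together had 475 and 469 UMIs. A UMI of any Hox gene was found in 433 and 364 cells. Genes that work with Hox proteins were expressed: all 9 Pbx, Meis and Pknox cofactor genes reached 1 CPM, 8 were lower in the knockout-labelled library and 1 higher, with a median log2 ratio of -0.18 against -0.03 over all genes, of which 7052 of 12406 were lower. Meis2, at 10.6 and 4.87 CPM (log2 -1.12, -1.28 to -0.96), and Meis1, at 1.22 and 0.82 CPM (log2 -0.58, -1.01 to -0.16), were the 2 past a log2 ratio of 0.5, against 1.51% of all genes in that direction.

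Of 21 partner genes of the caudal epiblast, 15 reached 1 CPM, with 8 higher, 7 lower and a median of 0.04, and 2 higher and 1 lower were past the fold (0.927% and 1.51% of all genes). Fgf8 (92.6 and 153 CPM, log2 0.73, 0.69 to 0.76) and Wnt5b (5.01 and 8.38 CPM, log2 0.74, 0.58 to 0.91) were higher, and the Notch-family repressor gene Hes3 was lower (2.33 and 0.49 CPM, log2 -2.23, -2.72 to -1.79). Sox2, the partner of T in neuromesodermal progenitors, had 33.2 and 24.6 CPM (log2 -0.43, -0.51 to -0.35). Of 16 Wnt pathway genes, 9 were higher and 7 lower with a median of 0.04, and besides Sp5 and Sp8 only Notum, a secreted Wnt inhibitor, passed the fold (7.77 and 5.29 CPM, log2 -0.55, -0.72 to -0.39). Of 12 genes that make, bind or break down retinoic acid, 6 reached 1 CPM, and Crabp2, a retinoic acid carrier, was lower (32.4 and 21.6 CPM, log2 -0.59, -0.67 to -0.51).

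Genes of anterior identity, the counterpart of the caudal group, moved in both directions: 9 of 13 reached 1 CPM, and 3 were past the fold upwards and 2 downwards, against 0.927% and 1.51% of all genes. Foxa2 had 2.28 and 6.81 CPM (log2 1.57, 1.35 to 1.80), Gsc 10.5 and 23.9 CPM (log2 1.18, 1.07 to 1.29) and Otx2 31.1 and 56.6 CPM (log2 0.86, 0.80 to 0.93), while Sox3 had 49.6 and 29.3 CPM (log2 -0.76, -0.83 to -0.69) and Lhx1 1.65 and 1.09 CPM (log2 -0.60, -0.97 to -0.24). These lists describe 2 libraries and carry no test.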

How the data were processed

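Cells were profiled with 10x Genomics 3′ chemistry, version 3.1, 1 library per group, per the labels. The authors deposited raw UMI counts per gene and barcode over 6794880 barcodes, without cell filtering or normalization. The submitters' processing notes name STARsolo, STAR 2.7.9a, Seurat 5.1.0 and build mm10, and the labels name Cell Ranger 8.0.1. The labels state 9238 and 11190 cells with medians of 5333 and 5398 genes, which the deposited counts do not give, and why was not tested.

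Barcodes with at least 2500 UMIs, at least 1000 genes and at most 10% mitochondrial UMIs were kept (8707 and 10587), with 97157331 and 97644169 UMIs. Doublets were scored and kept, and their removal was tried as an alternative. Counts were summed and scaled to CPM, and log2 ratios use a pseudocount of 0.5. Intervals are exact Poisson, exact conditional or Clopper-Pearson at 95% and cover counting error only. With 1 library per group no test was made. Cells were clustered with scanpy 1.11.5 (2000 variable genes, 30 components, 15 neighbours, resolution 0.5), and a cluster was named only with at least 3 of a class's markers raised 1.5-fold and 1 among its top 10 genes. Gene positions are from GENCODE on GRCm38. The ratio script was tested on simulated data. Python 3.11.15, scipy 1.17.1, R 4.3.3, edgeR 4.0.16 (TMM factors) and DESeq2 1.42.0 (size factors) were used.

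The members and lists were chosen with earlier results of these data known. Named are the 7 genes, T, Sp5 and Sp8, in each list up to 4 genes with the largest log2 ratio at 1 CPM, and the 6 genes most enriched in positive cells (mean of at least 10 CPM, at least 100 positive cells in each library). Cluster leaders, overlapping genes, depleted genes, overlap partners, single cell type markers, Lhx1 and Hoxc13 are named outside that rule, after their values were seen. The coordinates of Cdx1 and 1 of the enriched genes are not reported here.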

Additional observations from a re-analysis of the deposited data

Results flagged for a closer look

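Evx1 went in opposite directions in the libraries when cells low on chromosome 6 were set against all other cells. The log2 ratio of low over other cells was 0.25 (0.04 to 0.46) for the wild-type-labelled cells. For the knockout-labelled cells it was -0.61 (-0.92 to -0.34). The difference between these values was not tested. Of the cells low on chromosome 6, 627 of 1837 in the first library and 1664 of 1924 in the second were not also low on chromosome 11, and Evx1 was lower in such cells of both libraries.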

How the results depend on the processing

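No paired analysis was possible because each group has 1 library. The log2 ratio of Cdx2 stayed between -0.66 and -0.58 under the other cell filters, doublet removal, TMM scaling, DESeq2 size factors and no pseudocount. It was -0.067 without cells low on chromosome 6 or 11, and -0.036 and -0.21 with limits of 0.85 and 0.75, -0.17 without cells low on chromosome 11 and -0.22 without those low on chromosome 6 (the last 4 chosen after seeing the data). With equal cluster shares in both libraries the ratios were -0.46 for Cdx2, -0.39 for Evx1 and 0.0036 for Nkx1-2, a change of sign. Evx1 was at -0.077 without cells low on chromosome 6. Single clusters, also chosen after seeing the data, gave -0.18 (cluster 1), -0.57 (cluster 2), -0.46 (cluster 4), -0.82 (cluster 5), -0.59 (cluster 6) and 0.29 (cluster 7) for Cdx2. They gave 0.015 (cluster 1), 0.12 (cluster 2), 0.012 (cluster 4), -0.69 (cluster 5), -0.29 (cluster 6) and -0.95 (cluster 7) for Nkx1-2. For Evx1 they gave -0.51, -1.19, -0.36, 0.19, -0.35 and 0.083 in the same order, and cluster 5 gave 1.06 for Cdx1 and 1.57 for Hoxb1. In clusters 6 and 7 each interval held 0. Without low cells, a setting added later still, cluster 5 gave 2.02 for Cdx2 and 0.19 for Nkx1-2, from at most 13 UMIs in a library. The causes were not tested beyond the cells that each setting leaves out. Counting T from 2 UMIs raised observed over expected to 3.44 and 1.74 for Cdx2 and 3.17 and 2.35 for Evx1 in the libraries labelled wild type and double knockout, and the other 74 of 78 overlap values stayed within the main interval. Whether the shares with and without T were resolved did depend on depth. In cells thinned to 2500 UMIs their intervals overlapped for Cdx2 in both libraries (observed over expected 1.40 and 1.52). For Evx1 they then overlapped in the wild-type-labelled library (1.54) and lay apart in the other (1.71). Of 117 member ratios, 19 left the main interval and another 7 were counted as a change of sign. Sign changes were counted only for Cdx2, Evx1 and Nkx1-2, whose main intervals exclude 0, and not for the rarer genes. Of 72 shares of cells 23 left it, most of them with other thinning, and so did 4 of 12 cluster levels at a finer resolution. All 75 list medians moved by no more than the standard error of the mean log2 ratio over the listed genes. That error measures spread between genes and not between libraries. The 115 higher and 187 lower genes past the fold became 72 and 117 with equal cluster shares, 32 and 33 at a minimum of 10 CPM, and 2718 and 3094 with no minimum, where more genes of few counts enter. Depth limits Cdx1, Cdx4, Hoxb1 and Hoxb2, none of which had over 57 UMIs in a library.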

Other observations

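Hoxc13, a gene of the 5′ end of the HoxC cluster, had more UMIs than any other Hox gene, with 115 in the wild-type-labelled and 72 in the knockout-labelled library (log2 -0.68, -1.13 to -0.25), and was singled out after its values were seen. The extraembryonic-endoderm-like cluster held 16 cells in each library, and Cdx2 had 1 UMI there in the first and 8 UMIs in the second (49.2 CPM, 21.2 to 96.9). In cells thinned to 4000 UMIs, Hoxb1 and Evx1 met in 3 of the 5 Hoxb1-positive cells of the library labelled double knockout, against 0.19 expected for independent genes. In the wild-type-labelled library they met in 0 of 6, which allows up to 50%. Cdx1 and Evx1 met in 5 cells of the library labelled double knockout, against 1.02 expected. In the wild-type-labelled library they met in 0 of 15 Cdx1-positive cells, which allows up to 20%.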
